A study of Mus musculus with 5 samples.

Results

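C1q-positive barcodes were examined in 5 single-cell RNA libraries made from injured mouse kidneys. A barcode was kept when it held 500 or more genes and under 10% mitochondrial UMIs (unique molecular identifiers, which count captured transcripts), and it was taken as C1q-positive when the UMIs of C1qa, C1qb and C1qc summed to 5 or more and at least 1 UMI of Aif1 was present. This rule gave 2093 barcodes among 38417 retained ones, with 244, 595 and 333 in the knockout libraries and 423 and 498 in the control libraries. The barcodes were chosen on measured transcripts, so the levels of these 4 genes are descriptions and carry no test. The working label was kidney macrophages. The barcodes did carry macrophage genes, but 1918 of them also carried T cell receptor transcripts at 20% or more of the T cell median, and they are therefore called C1q barcodes here.

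All mice were 10 weeks old and had undergone unilateral ischemia-reperfusion injury of the kidney, and all carried floxed alleles of Il1rl1, which encodes the interleukin-33 receptor ST2. Mice of the genotype Il1rl1fl/fl Foxp3YFP-Cre gave the 3 knockout libraries. Their Cre is driven from the locus of Foxp3, the regulatory T cell factor. The 2 control libraries came from Il1rl1fl/fl mice, which the sample titles call wild type and whose labels name no Cre allele. An effect of the deletion and one of the Cre allele cannot be told apart. Live CD4 T cells had been sorted from digested kidneys on CD45, TCRβ, CD4, CD25 and CD127, so a macrophage was outside the intended gate. Whether the libraries are of separate animals is not in the labels, and the p-values measure the spread between libraries.

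C1q is the recognition part of the classical complement pathway, and resident macrophages are among its main producers. Its A, B and C chains are assembled together, and their genes stand side by side. Kidney macrophages also express the scavenger and lipid-handling gene Apoe, the fractalkine receptor Cx3cr1 and the growth factor receptor Csf1r, and after ischemia they share the tissue with recruited monocytes.

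In the GENCODE M21 annotation of GRCm38, C1qb occupies chromosome 4, bases 136880129 to 136886187, C1qc bases 136889804 to 136893065 and C1qa bases 136895917 to 136898803, all on the minus strand. Aif1, which encodes an actin-binding protein of macrophages, lies on chromosome 17. The promoters of C1qb and C1qc are shown because the C1q genes define the barcodes and kept nearly fixed proportions in every library. Each window runs from 250 bases before to 50 after the RefSeq start (GRCm38.p6, minus strand, written 5′ to 3′), at chr4:136886151-136886450 for C1qb and chr4:136892865-136893164 for C1qc. Capitals mark the PU.1 core GAGGAA or its reverse complement TTCCTC, and the MAF half-site core TGCTGA or its reverse complement TCAGCA.
C1qb: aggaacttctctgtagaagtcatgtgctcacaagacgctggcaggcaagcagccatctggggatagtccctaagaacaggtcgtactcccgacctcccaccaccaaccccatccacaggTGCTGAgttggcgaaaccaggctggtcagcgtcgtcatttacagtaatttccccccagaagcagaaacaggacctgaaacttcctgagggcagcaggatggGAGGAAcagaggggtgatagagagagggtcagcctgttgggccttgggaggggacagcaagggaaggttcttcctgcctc
C1qc: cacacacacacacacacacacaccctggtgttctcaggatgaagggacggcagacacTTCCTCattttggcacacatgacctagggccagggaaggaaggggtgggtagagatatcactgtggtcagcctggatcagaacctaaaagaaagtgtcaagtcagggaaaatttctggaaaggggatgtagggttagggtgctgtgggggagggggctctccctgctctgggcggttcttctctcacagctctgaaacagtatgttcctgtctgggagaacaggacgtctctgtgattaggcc
The C1qb window holds both cores and the C1qc window the PU.1 core. Of 32851 RefSeq promoter windows of this length, 28.3% hold the PU.1 core, 19.5% the MAF core and 5.36% both, so the matches are common ones and say nothing of binding. Spi1, the gene of PU.1, averaged 147 CPM (UMI counts scaled to equal depth, from the sum over a library's barcodes of one kind) in C1q barcodes and 4.8 CPM in T cells.

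The libraries differed in depth. Total UMIs were 41153835, 60421178 and 31104939 in the knockout libraries and 152275841 and 46383793 in the control libraries, so control 1 was sequenced most deeply. Of all barcodes, 178 occurred in more than 1 library, and none of these was a C1q barcode in both of its libraries. Il1rl1 itself stood at 53.5, 32.4 and 28.7 CPM in the C1q barcodes of the knockout libraries, against 16 and 16 in the control libraries. Its log2 fold change was 1.21 in C1q barcodes (SE 0.27, edgeR adjusted p = 0.903, DESeq2 adjusted p = 0.036) and 1.56 in T cells. The knockout libraries were all higher, which does not check the genotype, since which exons were floxed is not given in the sources used here and a 3′ read can lie outside them.

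At the edge of the rule, C1q barcodes with exactly 5 C1q UMIs numbered 8, 24 and 11 in knockout and 16 and 18 in control libraries, and barcodes left out with 4 numbered 10, 20 and 18 in knockout and 27 and 20 in control libraries. An Apoe UMI was present in 75%, 87.5% and 81.8% of the knockout barcodes and 43.8% and 77.8% of the control barcodes with exactly 5, and in 80.0%, 65.0% and 83.3% of the knockout and 63.0% and 70.0% of the control barcodes with 4. The Apoe share was higher with 5 C1q UMIs in knockout 2 and control 2 and higher with 4 in the other libraries. The limit therefore marked no common direction in Apoe, on few barcodes. A further 106, 249 and 160 knockout and 163 and 253 control barcodes had enough C1q but no Aif1. Among barcodes with a Cd3 UMI that were not members, 8.61% to 10.6% had at least 1 C1q UMI.

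The macrophage programme was clear. Apoe stood at 1379, 1093 and 1567 CPM in the knockout libraries and 624 and 1785 in the control libraries. It averaged 1290 ± 450 in C1q barcodes (SD, n = 5 libraries), 339 ± 136 in monocyte-type barcodes and 5.4 in T cells, where T cells were retained barcodes with a Cd3 UMI and no UMI of C1q or Lyz2. Monocyte-type barcodes had fewer than 5 C1q UMIs, 3 or more UMIs of Vcan, F13a1, Chil3, Fn1 and Ly6c2 together and 2 or more of Lyz2. Adgre1, which encodes the F4/80 antigen, averaged 145 ± 53.0 CPM in C1q barcodes and 43.1 ± 12.7 in monocyte-type barcodes. Cx3cr1 averaged 188 ± 33.7 in C1q barcodes and 68.8 ± 13 in monocyte-type barcodes.
The receptor Csf1r was close in both, at 149 ± 22.3 and 134 ± 36.5. Ms4a7, a membrane protein of tissue macrophages, averaged 105 and 5.9, and the platelet factor gene Pf4 averaged 55.1 and 2.5. Lyz2 averaged 757 and 4149 and Chil3 10.3 and 265. Monocyte-type barcodes were chosen on these genes, so that direction was fixed by the choice. Of 11 genes listed for perivascular scavenger macrophages, the mannose receptor Mrc1 averaged 170 CPM, Pf4 55.1, the scavenger receptor Stab1 52.8 and Gas6 10.1. The other 7, among them Cbr2, Lyve1, Folr2, Timd4 and Cd163 at 1.97, 0.31, 0.69, 0.12 and 1.2 CPM, averaged no more than Cbr2.

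**Figure D1:**
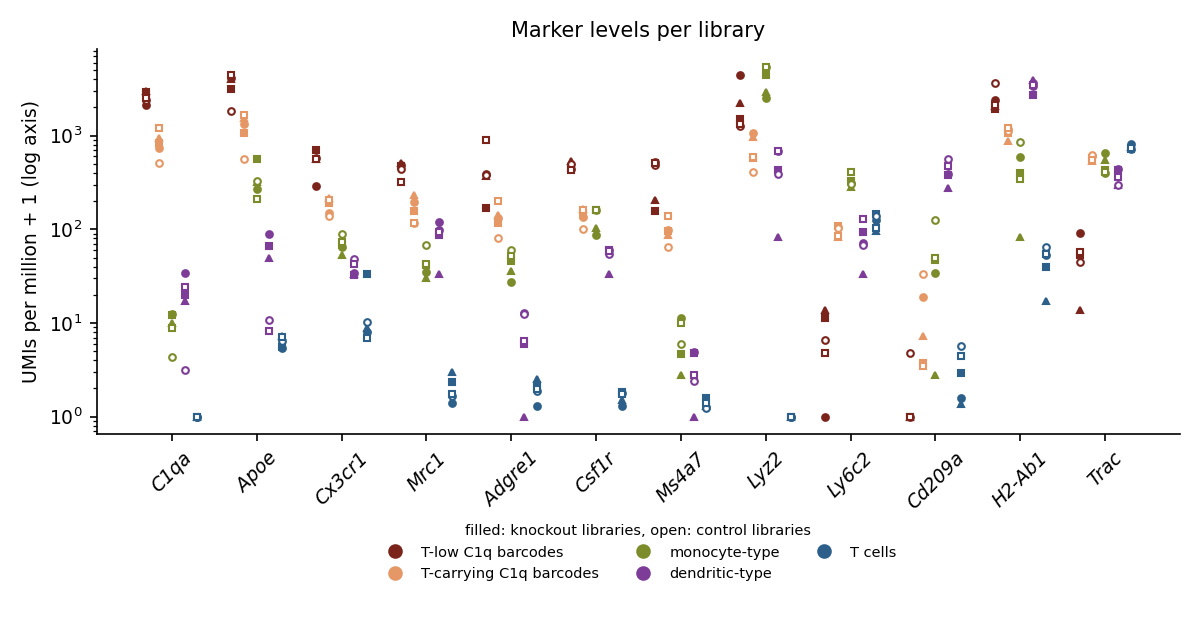
Level of 12 genes (CPM plus 1, log axis) in C1q barcodes with low and with high T cell receptor content, monocyte-type and dendritic-type barcodes and T cells; each point is 1 of 5 libraries, filled for knockout and open for control. Macrophage genes were highest in the T-low C1q barcodes (receptor share under 20% of the T cell median), and Trac was higher in the T-carrying ones, which the split itself used.

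To compare detection at equal depth, each barcode was thinned to 2000 UMIs. Apoe was then found in 70.5%, 69.0% and 80.6% of knockout and 49.3% and 76.5% of control C1q barcodes. The exact binomial 95% intervals, which cover counting error only, ran from 44.4–54.2% in control 1 to 75.8–84.7% in knockout 3. Before thinning the shares were 91.0%, 91.8% and 94.0% in knockout and 79.2% and 90.6% in control libraries. In thinned T cells Apoe was found in 0.751% to 1.20%. These T cells were chosen to hold no C1q or Lyz2 UMI, so they cannot measure the background of free macrophage RNA. Control 1 stood apart with the lowest Apoe share. Mrc1 was found in 29.1%, 25.2% and 36.1% of thinned knockout and 14.7% and 19.7% of thinned control C1q barcodes, against 0.108% to 0.435% of T cells. Thinning left out 7 to 11 knockout and 7 and 25 control C1q barcodes with too few UMIs.

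The same barcodes carried T cell receptor transcripts at nearly the level of T cells. For each barcode, the share of UMIs from Cd3d, Cd3e, Cd3g, Trac, Trbc1 and Trbc2, the chains of the receptor complex, was divided by the median share in T cells of its own library. The median of this ratio in C1q barcodes was 77.1%, 88.5% and 78.8% in the knockout libraries and 87.1% and 74.3% in the control libraries. The groups overlapped, and the difference of 0.75 percentage points was not beyond the spread (two-sided exact permutation p = 0.8, adjusted p = 1.0 over 5 measures; with 10 arrangements of the libraries the smallest p is 0.2). In counts, the median C1q barcode held 65, 45 and 44 receptor UMIs in knockout and 75 and 30 in control libraries, against 31, 18 and 17 in knockout and 48 and 18 in control T cells. No receptor UMI at all was present in 13, 15 and 13 knockout and 18 and 38 control C1q barcodes.

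Other barcode types set the scale. Tubule-type barcodes, with 3 or more UMIs of Lrp2, Slc34a1, Slc5a12 and Miox, had median ratios of 0 in all 3 knockout libraries and of 2.57% and 0 in the control libraries, from 9 to 44 barcodes a library. Monocyte-type barcodes had 83.2%, 64.4% and 71.5% in knockout and 56.9% and 63.3% in control libraries. B-type barcodes held 3 or more UMIs of Cd79a, Cd79b and Ms4a1 together and no C1q UMI. They had 49.4%, 62.5% and 75.4% in knockout and 55.6% and 50.3% in control libraries. Dendritic-type barcodes, with Cd209a and 5 or more UMIs of H2-Ab1, were the lowest immune type in 3 of 5 libraries, at 66.5%, 49.3% and 54.3% in knockout and 37.6% and 51.0% in control libraries. The immune types thus had high medians. Ly6c2, which the monocyte-type rule uses, stood at 93.9 to 144 CPM in T cells. That rule can therefore also take in barcodes with T cell RNA. Tubule medians were at or near 0, but the 90th percentile of tubule-type barcodes reached 45.6% in knockout 1 and 45.2% in control 1.

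**Figure D2:**
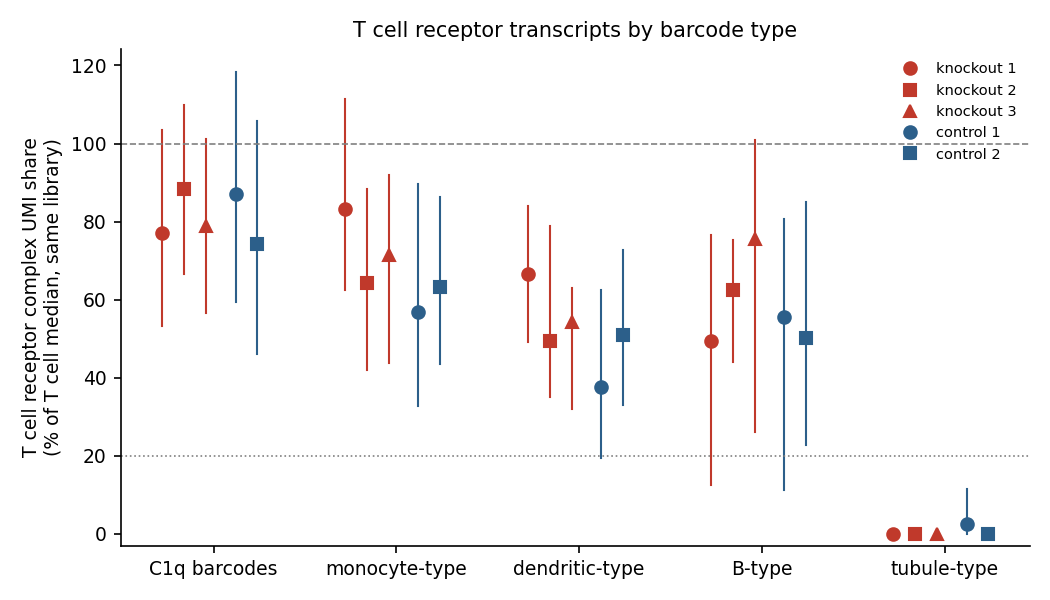
Share of T cell receptor complex UMIs by barcode type, as a percentage of the T cell median of the same library (y axis); points are library medians and bars the range from the 25th to the 75th percentile of barcodes, knockout libraries in red left of control libraries in blue. The dashed line is the T cell median and the dotted line the 20% limit for T-low barcodes; the C1q medians lie between 74.3% and 88.5%, and the tubule medians at or near 0.

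C1q barcodes were also large. Their median UMI total was 2.77, 2.97 and 3.44 times that of T cells in the knockout libraries and 1.73 and 2.26 times in the control libraries (3.06 ± 0.341 and 1.99 ± 0.375; SD, n = 3 and 2). The groups did not overlap, and exact permutation gave p = 0.2 (adjusted p = 0.333), the smallest the design allows. A rule that asks for several UMIs of low-share genes also selects deep barcodes. Whether these droplets held more than 1 cell was not tested, and no doublet caller was run.

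C1q barcodes were split at 20% of the T cell median. The 175 below it, called T-low, numbered 20, 26 and 19 in knockout and 56 and 54 in control libraries, which was 8.20%, 4.37% and 5.71% of the knockout and 13.2% and 10.8% of the control C1q barcodes. Every knockout library was lower than both controls (6.09% ± 1.94 against 12% ± 1.69, exact permutation p = 0.2, adjusted p = 0.333). T-low barcodes were small, with median UMIs 0.360, 0.502 and 0.634 times those of T cells in the knockout libraries and 0.561 and 0.939 times in the control libraries. T-carrying barcodes held 2.99, 3.08 and 3.60 times in knockout and 1.93 and 2.42 times in control libraries. A set of 460 genes was chosen as enriched in T-low barcodes over T cells, and it holds the C1q genes, Aif1 and Lyz2, so its contrast with T cells was fixed by the choice. These genes made up 10.2%, 8.91% and 10.3% of T-low UMIs in knockout and 10.5% and 10.6% in control libraries. In T-carrying barcodes they made up 3.83%, 3.42% and 3.84% in knockout and 2.87% and 4.03% in control libraries, and in T cells 0.187% to 0.263%.

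The macrophage side of T-carrying barcodes resembled T-low barcodes once scaled to C1q. Per 1000 C1q UMIs, Apoe had 503 ± 83.6 UMIs in T-carrying and 469 ± 150 in T-low barcodes (SD, n = 5 libraries each). Csf1r had 59.8 ± 7.3 and 62.5 ± 6.4, and Cx3cr1 76.5 ± 12.6 and 71.7 ± 18.9. Each of these differences was within the spread between libraries. The chains held near the same proportions, with C1qa at 352 and 343, C1qb at 375 and 382 and C1qc at 273 and 275. Cd74, the invariant chain of class II molecules, was higher in T-carrying barcodes in 5 of 5 libraries (1539 ± 584 against 1195 ± 519), as was H2-Ab1, a class II chain (490 ± 177 against 332 ± 121). Maf had 103 ± 37.0 and 35.5 ± 3.8, and T cells express Maf too, at 191 CPM. These are descriptions, since both kinds come from barcodes that the rule chose.

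The T cell side resembled the T cells of the same library. Scaled to 1000 receptor UMIs, 30 T cell genes had 20 or more UMIs in every library, and for 28 of them the median ratio of T-carrying barcodes to T cells lay between 0.8 and 1.25. The exceptions were the interleukin-23 receptor gene Il23r, at 1.39, and the antiviral gene Rsad2, at 1.28, and the lowest ratio was the 0.834 of Cd8a. Foxp3 had 7.20, 7.12 and 5.23 UMIs per 1000 in knockout T-carrying barcodes, against 7.75, 7.80 and 5.69 in knockout T cells. In the control libraries Foxp3 had 7.75 and 6.73 in T-carrying barcodes and 8.35 and 8.08 in T cells. A feature of a single library appeared in both. Csf1, a growth factor for macrophages, had 10.9 in T-carrying barcodes and 13.2 in T cells of knockout 2, and 1.07 to 2.43 elsewhere.

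**Figure D3:**
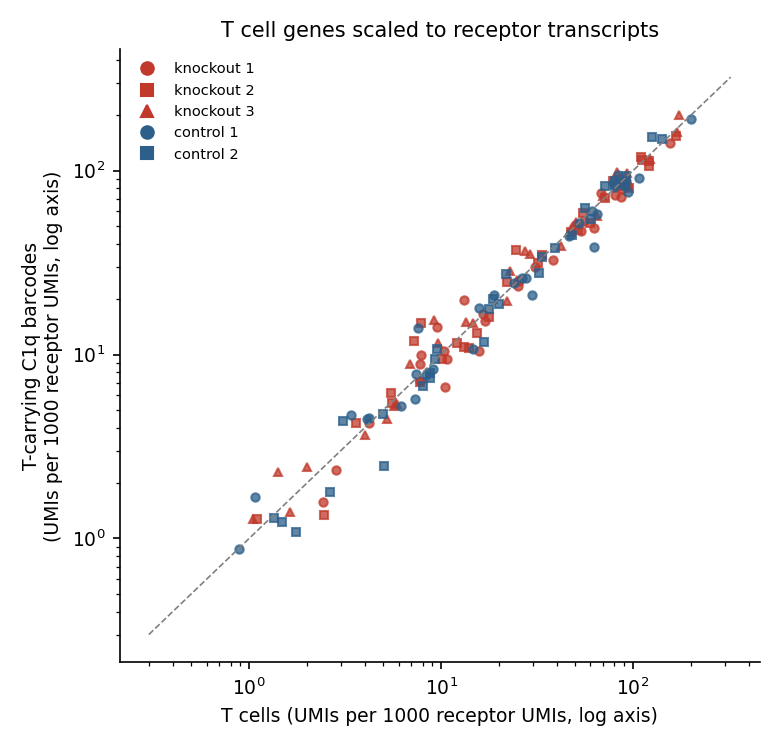
UMIs per 1000 T cell receptor UMIs of 30 T cell genes, in T-carrying C1q barcodes (y axis) against T cells of the same library (x axis), both log axes; each point is 1 gene in 1 library and the dashed line marks equality. Points follow the line across the range, and 28 of 30 genes had a median ratio between 0.8 and 1.25.

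Clustering divided the C1q barcodes into 8 groups, several of which were led by T cell genes. Clusters are numbered by the algorithm, and their sizes and levels are descriptions. Cluster 0 (689 barcodes) was led by Ifng, Il31ra and Itga1 together with interferon-induced Ifit genes, and cluster 5 (45 barcodes) by the Th17 genes Il23r and Ccr6. Cluster 7 (78 barcodes) was led by genes of naive T cells such as Ccr7 and Satb1. Cluster 2 (682 barcodes) had the most Adgre1, Mrc1 and Mertk, at 240.5, 262.5 and 39.1 CPM, against 24.8, 51.9 and 0.69 in cluster 0. Other macrophage genes were highest in cluster 6. There Apoe, Csf1r, Cx3cr1, Ms4a7 and Pf4 stood at 3491, 351, 338, 237 and 173 CPM, against 1521, 202, 274, 159 and 54.9 in cluster 2. Cluster 3 (308 barcodes) was led by histone and mitosis genes and held 9.02%, 17.3% and 30.3% of the knockout and 7.33% and 10.2% of the control C1q barcodes.
Cluster 1 (50 barcodes) was monocyte-like, with Chil3, Vcan, Fn1, Thbs1 and F13a1 among its 10 leading genes. It held 6.56%, 3.53% and 1.5% of the knockout C1q barcodes and 1.42% and 0.402% of the control ones. Cluster 4 (25 barcodes) was B-like, led by Ebf1, Cd79a, Pax5 and Ms4a1. Cluster 6 (216 barcodes) was led by AY036118, Hmox1, Gm19951, Pf4 and Cmss1, with the C1q genes after them, and 40.3% of it was T-low. Its median UMI total of 4783 was the lowest of the clusters, and Cmss1 stood at 8110 CPM in it. It held 25.3% of the C1q barcodes of control 2 and 4.2% to 7.09% of those of the other libraries, so 58.3% of it came from control 2.

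**Figure D4:**
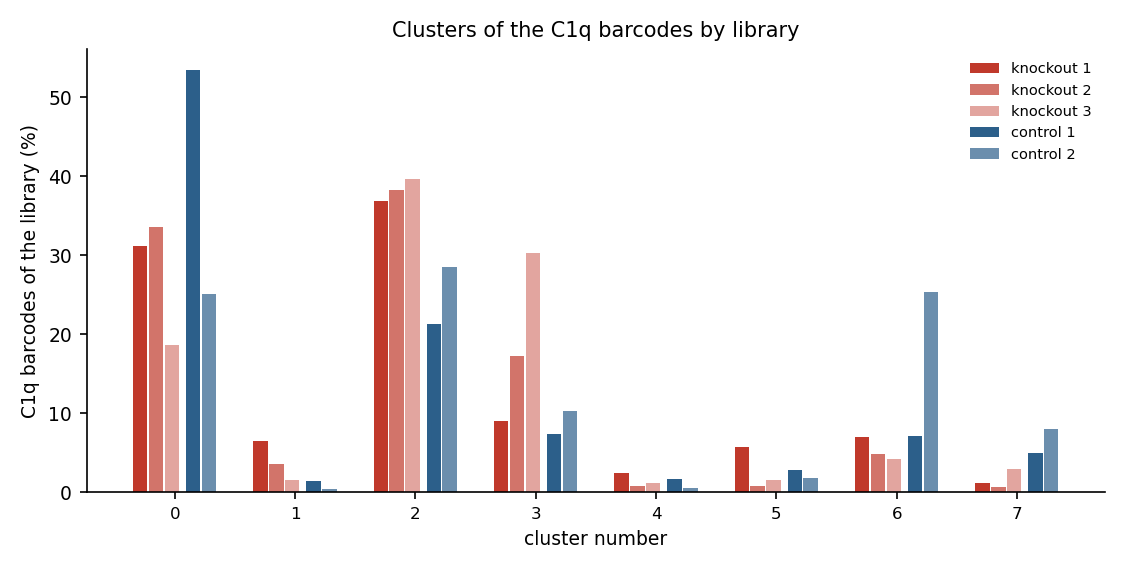
Percentage of each library's C1q barcodes in each of 8 clusters (x axis, cluster number); knockout libraries in red left of control libraries in blue. Cluster 0 was largest in control 1, cluster 3 in knockout 3 and cluster 6 in control 2, at 53.4%, 30.3% and 25.3%.

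C1q barcodes were 5.75%, 5.77% and 6.23% of retained barcodes in the knockout libraries and 4.46% and 5.52% in the control libraries (5.92% ± 0.271 and 4.99% ± 0.748). The knockout libraries were all higher, with an exact permutation p = 0.2 and an adjusted p = 0.333. The sign of the mean difference turned in both shares that lean less on depth or on T cell content. With the rule applied after thinning to 2000 UMIs, the share was 1.02%, 1.26% and 1.53% in knockout and 0.642% and 2.16% in control libraries. This share was taken among barcodes with at least 2000 UMIs, and the controls lay on both sides of the knockout libraries. T-low barcodes alone were 0.472%, 0.252% and 0.355% of knockout and 0.590% and 0.598% of control retained barcodes.

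The knockout was then compared with the control over all genes, on UMIs summed per library over the C1q barcodes. No gene passed edgeR's quasi-likelihood test at an adjusted p of 0.05 (0 of 11655, 0.0%), and the smallest adjusted p was 0.111. Without adjustment, 411 genes had p below 0.05 (212 higher, 199 lower). DESeq2 called 21 genes (0.18%), with 13 higher (0.112%) and 8 lower (0.0686%). The groups did not overlap for 17.7% of genes, with 12.3% higher and 5.39% lower in every knockout library. In sums over mixed barcodes, a lower share of one cell's RNA and a lower level within that cell cannot be told apart. Adjusted p-values are edgeR's with Benjamini-Hochberg adjustment over all genes unless DESeq2 is named. Values in T-low barcodes and in T cells are given beside some of the genes that follow. T-low sums held 110029, 95770 and 79098 UMIs in knockout and 529886 and 263916 in control libraries. T-low levels of genes with low CPM therefore rest on few UMIs. Over all genes, 51.8% had positive log2 fold changes.

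The higher genes named by the rule had 20 or more CPM, and most were expressed in T cells as well. Below that level, Gzmc had a smaller edgeR p (9.5e-06) than any of them, and Ifitm1 (4.2e-05) a smaller one than all but Lilr4b. Ms4a4a, also below it, had a log2 fold change of 1.81 (edgeR adjusted p = 0.641, DESeq2 adjusted p = 0.00957). T cells held Ms4a4a at only 0.73 to 1.86 CPM, with a log2 fold change of −0.06. Lilr4b, an inhibitory Ig-like receptor gene, stood at 60.1, 59.5 and 58.3 CPM in knockout and 30.3 and 27.9 in control C1q barcodes, with a log2 fold change of 0.98 (SE 0.12, edgeR adjusted p = 0.162). In T cells it stood at 53.3, 60.7 and 44.9 in knockout and 19.7 and 15.5 in control libraries, and in T-low barcodes at 63.6, 62.7 and 152 in knockout and 35.9 and 53.0 in control libraries. Its neighbour Lilrb4a on chromosome 10 had a log2 fold change of 0.72 (adjusted p = 0.400), and how reads were shared between these similar genes is uncertain. Cish, a feedback inhibitor of cytokine receptors, stood at 108, 104 and 114 in knockout and 52.5 and 61.1 in control C1q barcodes (log2 fold change 0.90, edgeR adjusted p = 0.162). T cells held Cish at 136, 105 and 127 in knockout and 61.7 and 75.1 in control libraries, while T-low barcodes held 18.2, 10.4 and 37.9 in knockout and 26.4 and 15.2 in control libraries. In T cells its log2 fold change was 0.81, and in T-low barcodes the groups overlapped.
The sialyltransferase gene St6galnac3 (log2 fold change 1.14), the ATP-gated channel gene P2rx7 (0.63), the hydrolase gene Fhit (0.62) and the NAD-consuming ectoenzyme gene Cd38 (0.66) completed the named group with Hdac9. The log2 fold changes of St6galnac3, P2rx7, Fhit and Cd38 in T cells were 0.93, 0.70, 0.52 and 0.42. None passed edgeR's test in either population. DESeq2 called Lilr4b, Lilrb4a, Cish, St6galnac3, P2rx7 and Hdac9, with adjusted p from 6.59e-06 to 0.0136.

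Hdac9, a class IIa histone deacetylase gene, differed from these. It stood at 226, 215 and 210 CPM in knockout and 119 and 143 in control C1q barcodes (log2 fold change 0.69, SE 0.11, edgeR adjusted p = 0.413). T-low barcodes held 518, 710 and 354 in knockout and 442 and 413 in control libraries, so there the groups overlapped, and T cells held 11.6, 9.0 and 10.2 in knockout and 17.5 and 11.1 in control libraries. The difference between its knockout effect in C1q barcodes and in T cells was 1.246 (log2) and missed edgeR's threshold (adjusted p = 0.187). DESeq2 called it (1.19, adjusted p = 0.00823), and without control 2 so did edgeR (1.61, adjusted p = 0.00233).

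**Figure D5:**
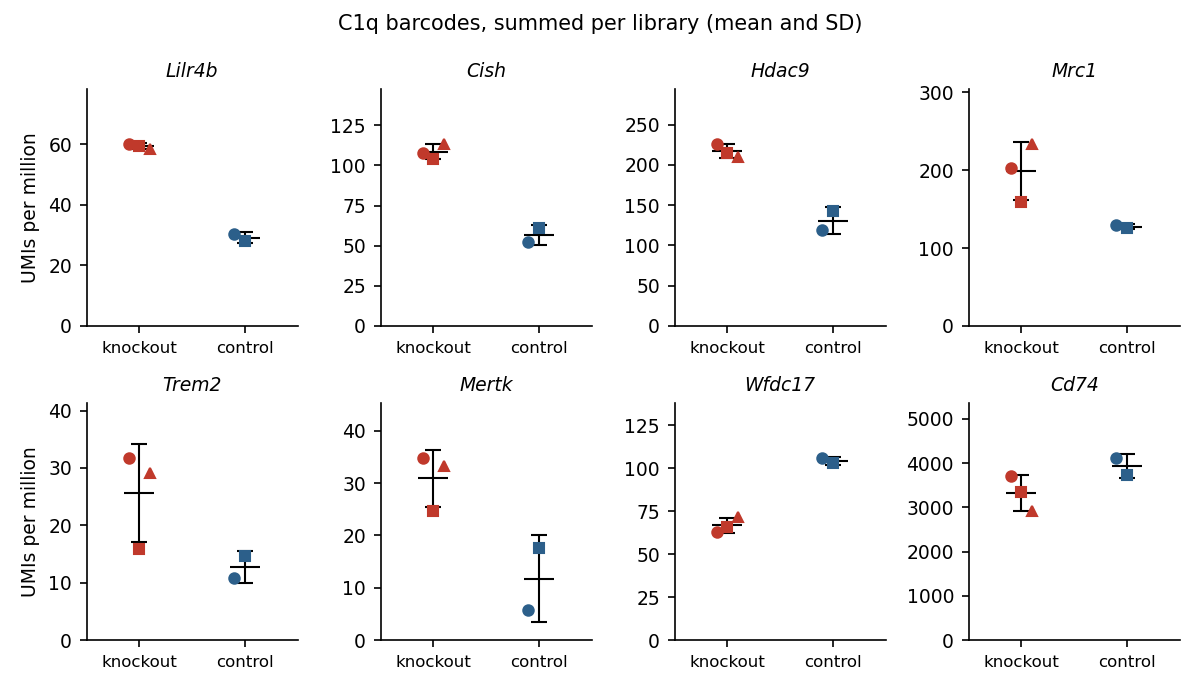
CPM of 8 genes summed over the C1q barcodes of each library; points are libraries, with 3 knockout libraries in red left of 2 control libraries in blue, and black bars show the mean and SD. The groups do not overlap for any of the 8 genes, as for 17.7% of all genes, and none of the 8 passed edgeR's test over all genes. Lilr4b, Cish, Hdac9 and Wfdc17 came from a rule that asked for groups not overlapping, so for them this was fixed by the choice.

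Among lower genes, Wfdc17, a small secreted protein gene of activated macrophages, stood at 63.0, 66.1 and 71.6 CPM in knockout and 106 and 103 in control C1q barcodes (log2 fold change −0.68, SE 0.10, edgeR adjusted p = 0.400, DESeq2 adjusted p = 0.00176). In T-low barcodes it stood at 264, 115 and 139 in knockout and 311 and 235 in control libraries, where the groups overlapped, and T cells held 0.94 to 3.1. The interferon-inducible gene Ifi208 (−0.65), the actin-linked gene Filip1l (−0.55), the chaperone activator gene Ahsa1 (−0.67), the polarity gene Patj (−0.75), the complement regulator Cd55 (−0.90), the sialic acid hydroxylase gene Cmah (−0.58) and the T cell costimulator Cd27 (−0.65) were the others that the rule named. Of these, DESeq2 called Ifi208 and Filip1l. All 7 were also negative in T cells, at −0.71, −0.26, −0.70, −0.74, −0.68, −0.49 and −0.61. In T-low barcodes Cmah stood at 18.2, 31.3 and 12.6 CPM in knockout and 117 and 140 in control libraries (log2 fold change −2.52, edgeR adjusted p = 0.0736). The knockout levels of Cmah rest on few UMIs. For Filip1l the groups overlapped in T-low barcodes (−0.08). For Cd55 the sign turned when the rule was applied after thinning (0.26).

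Testing the difference between effects over all genes, edgeR found 0 of 13451 genes (0.0%) whose knockout effect in C1q barcodes differed from that in T cells, with 629 at an unadjusted p under 0.05. DESeq2 called 4 (0.0297%), with positive differences for Maml3, March1 and Hdac9 (0.0223%) and a negative one for Klra4 (0.00743%). All UMIs of Klra4 came from 2 barcodes in control 1 and 2 in control 2. In T cells alone edgeR called 0 of 13693 (0.0%), and DESeq2 41.

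Resident macrophage genes were centred near no difference. Of 12, 5 had positive log2 fold changes, with a median of −0.04 against 0.01 over all genes. Apoe had 0.13 (SE 0.38), Csf1r 0.03 (SE 0.16), Cx3cr1 −0.05 (SE 0.19) and Adgre1 −0.32 (SE 0.32). Adgre1 stood at 135, 117 and 145 CPM in knockout libraries and 93.0 and 233 in control libraries, so the controls lay on both sides of the knockouts. Mertk, a receptor for apoptotic cells, was the member whose groups did not overlap, against 17.7% of all genes. It stood at 34.8, 24.7 and 33.2 in knockout and 5.83 and 17.6 in control libraries (log2 fold change 1.44, SE 0.41, edgeR adjusted p = 0.999). In T-low barcodes Mertk stood at 54.5, 31.3 and 114 in knockout and 9.4 and 94.7 in control libraries, so there the groups overlapped, on few UMIs.

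Of 18 phagocytosis receptor genes tested, 12 were positive with a median of 0.08. Among them 3 were higher in every knockout library, against 12.3% of all genes, which were Mertk, Lrp1 and the inhibitory Fc receptor gene Fcgr2b. The scavenger receptor Lrp1 stood at 36.5, 23.8 and 31.8 in knockout and 16.8 and 14.6 in control libraries (0.91, adjusted p = 0.906). Mrc1 stood at 202, 160 and 234 in knockout and 130 and 125 in control libraries (0.60, SE 0.16, adjusted p = 0.999). Per 1000 C1q UMIs, Mrc1 in T-carrying barcodes had 89.7, 68.9 and 83.4 in knockout and 78.1 and 34.9 in control libraries, so the groups overlapped on that scale.

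Genes of lipid handling and injury had 9 of 10 positive log2 fold changes with a median of 0.31, against 0.06 in T cells. Trem2, a lipid-sensing receptor gene, stood at 31.8, 15.8 and 29.1 in knockout and 10.8 and 14.7 in control libraries (0.97, SE 0.32, adjusted p = 0.999). T-low barcodes showed Trem2 at 109, 52.2 and 139 in knockout and 32.1 and 34.1 in control libraries, where the groups did not overlap either. These levels rest on few UMIs (log2 fold change 1.61, edgeR adjusted p = 0.388). The share of all genes not overlapping in T-low barcodes is not given here. Lpl, the lipoprotein lipase gene, had 0.55, and Spp1, the osteopontin gene, 0.59 with overlapping groups. In T-low barcodes Spp1 stood at 254, 303 and 50.6 in knockout and 41.5 and 68.2 in control libraries, again overlapping (log2 fold change 2.03, edgeR adjusted p = 0.0736).

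Monocyte genes had 12 of 13 positive log2 fold changes with a median of 0.44, against 0.26 in T cells. Of the 13, 4 were higher in every knockout library, against 12.3% of all genes, and 1 was lower, against 5.39%. Chil3 stood at 37.5, 4.64 and 8.54 CPM in knockout and 0.97 and 0 in control libraries, Vcan at 58.6, 9.49 and 5.83 in knockout and 2.65 and 3.42 in control libraries, and Fn1 at 70.6, 23.5 and 20.4 in knockout and 7.96 and 18.2 in control libraries. Knockout 1 was the highest for all 3 genes. Few barcodes carried these genes, with Chil3 in 14, 14 and 7 knockout and 2 and 0 control C1q barcodes. The monocyte-like cluster also held its largest share in knockout 1, though its order over the other libraries was not that of each gene, and its part in the result was not tested.

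Chemokine genes were positive in 12 of 12 tested with a median of 0.47. In T cells the median was 0.53, over the 10 tested there. None was non-overlapping between groups, against 17.7% of all genes. Cxcl9, a target of interferon-gamma, stood at 58.8, 39.7 and 2.91 in knockout and 9.64 and 3.42 in control libraries, and in knockout 1 a single barcode gave 169 of 348 UMIs. Ccl2, a monocyte attractant, stood at 20.9, 13.6 and 55.1 in knockout and 15.9 and 27.0 in control libraries. The 12 positive signs are not 12 independent observations, since the genes were measured in the same 5 libraries.

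Of 11 class II presentation genes, 5 were positive and the median was −0.13, against −0.75 in T cells. The knockout libraries were all higher for 2 of them, Cd80 and Cd86, against 12.3% of all genes. They were all lower for 2, against 5.39%. Cd74 stood at 3716, 3351 and 2915 in knockout and 4119 and 3744 in control libraries (−0.28, SE 0.14, adjusted p = 0.999), and H2-Ab1 at 1212, 1063 and 891 in knockout and 1238 and 1253 in control libraries (−0.28, SE 0.15, adjusted p = 0.999). These 2 were the lower ones, though for H2-Ab1 knockout 1 was close to control 1. In T cells the log2 fold changes of Cd74 and H2-Ab1 were −0.75 and −0.75. The costimulator Cd86 was positive (0.43), at 87.5, 105 and 86.0 in knockout and 61.4 and 73.0 in control libraries.

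Of 10 repair and fibrosis genes, 6 were positive with a median of 0.36, against 0.80 in T cells. Igf1, a growth factor gene, stood at 13.8, 11.8 and 16.9 in knockout and 6.19 and 8.81 in control libraries (0.90, SE 0.25, adjusted p = 0.999). Arg1, the arginase gene of repair macrophages, stood at 20.9, 4.43 and 5.24 in knockout and 1.59 and 4.14 in control libraries, and control 2 had 22 of its 23 UMIs in 1 barcode. Tgfb1 had −0.16 with overlapping groups, and the platelet-derived growth factor gene Pdgfb was lower in every knockout library (−0.42).

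The macrophage factor list had 10 of 15 positive (median 0.21, and −0.001 in T cells), and 4 were higher in every knockout library, against 12.3% of all genes. Pparg, a lipid-sensing nuclear receptor gene, stood at 44.2, 33.6 and 43.5 in knockout and 27.8 and 26.6 in control libraries (0.52). Lysosome genes centred at −0.05 (6 of 19 positive). Of 12 stress genes, 4 were positive (median −0.18, and −0.47 in T cells) and 1 was lower in every knockout library, against 5.39% of all genes. This was the chaperone gene Hsph1, which stood at 66.5, 56.2 and 74.8 CPM in knockout and 77.3 and 183 in control libraries, with control 2 far above the rest.

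Markers of other cell types were also measured. The B cell gene Ms4a1 stood at 0.34, 1.37 and 0.58 CPM in knockout and 6.45 and 5.39 in control libraries (log2 fold change −2.85, adjusted p = 0.455). Of 6 tested B cell genes 1 was positive, and 4 of them were lower in every knockout library, against 5.39% of all genes. Their summed levels were 5503, 209 and 217 CPM in knockout and 351 and 339.5 in control libraries, where Igkc made most of the sum in knockout 1. Of 5 NK cell genes none was positive, 4 were lower in every knockout library, against the same 5.39%, and their summed levels were 14.5, 21.8 and 22.9 in knockout and 33.0 and 56.6 in control libraries. Dendritic genes were positive for 2 of 7 (summed levels 86.8, 51.1 and 79.0 in knockout and 118 and 91.7 in control libraries), and T cell genes for 6 of 14 (7611 to 8352 in knockout and 7833 and 8151 in control libraries). Tubule, endothelial, neutrophil and fibroblast lists summed to at most 13.2 CPM in any library. The part of these cell types in the values above was not tested.

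When T-low barcodes were tested alone, edgeR called 4 of 2603 genes (0.154%; 0.0768% in each direction), on 65 knockout and 110 control barcodes. Fn1, a matrix gene, had a log2 fold change of 7.28 (adjusted p = 0.00293), from 73, 11 and 0 UMIs in knockout and 1 and 0 in control libraries. The 73 came from 2 barcodes and the 11 from 1. Gda, a guanine deaminase gene, had 24, 13 and 2 UMIs in knockout and 1 and 1 in control libraries (5.44, adjusted p = 0.0121), with 20 and 11 of them in single barcodes of knockout 1 and knockout 2. Aff3, a nuclear factor gene of lymphocytes, was lower (−2.35, adjusted p = 0.00293), with 7, 4 and 5 UMIs in knockout and 163 and 75 in control libraries, and so was the lymphocyte chromatin organiser Satb1 (−2.58, adjusted p = 0.00335), with 3, 3 and 3 UMIs in knockout and 109 and 49 in control libraries. Aff3 UMIs lay in 10 of the 65 knockout and 29 of the 110 control T-low barcodes. The top barcodes of control 1 and control 2 held 59 and 26 of them. For Satb1 the top barcodes held 65 of the 109 UMIs in control 1 and 11 of the 49 in control 2. Satb1 UMIs lay in 10 T-low barcodes of control 1 and 8 of control 2.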

How the data were processed

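The authors' deposited matrices give raw counts of UMIs. Their headers name Cell Ranger 8.0.0, while version 8.0, the build mm10 and Seurat 5.1.0 stand in the submitters' processing notes. All 40778 barcodes were read, and the numbers of barcodes per library equal the cell counts in the design text. C1q barcodes held 5150207 to 11312736 UMIs per library. UMIs were summed per library and population, and levels are CPM of that sum. Sums were tested with edgeR 4.0.16 (TMM, filterByExpr, quasi-likelihood, Benjamini-Hochberg over all genes, threshold 0.05, no block), and with DESeq2 1.42.0 as an alternative. The difference of effects was fitted on 10 sums with the library as a term. Clusters came from scanpy 1.11.5 and igraph 0.11.9. Other tools were R 4.3.3, limma 3.58.1, Python 3.11.15, scipy 1.17.1, numpy 2.4.6, pandas 2.3.3 and matplotlib 3.10.9. The scripts were tested on simulated data.

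The members, the gene lists and the rules were chosen with earlier results of these data known. The rule for named genes took, in each direction, up to 12 genes that passed with groups not overlapping, filled to 8 with genes of 20 or more CPM that did not pass, and always named a set of macrophage genes. It left out antigen receptor segments, unnamed gene models, sex-linked, ribosomal and mitochondrial genes. Some genes that the rule or the lists name are not reported here. Other list members, the genes DESeq2 called, the T-low calls and cluster genes were named after their values were seen. Doublets were not removed, since no caller was run. The T-low split sets apart barcodes with few T cell receptor UMIs. The removal of C1q barcodes above the 90th percentile of their own UMIs keeps most T-carrying ones. It therefore does not stand in for doublet removal. Macrophage-enriched genes had 20 or more CPM in T-low barcodes and at least 10 times the T cell level. Counting intervals cover counting error only.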

Additional observations from a re-analysis of the deposited data

How the results depend on the processing

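With C1q barcodes summed per library, edgeR's 0 calls became 49 with no filter on low counts (26 higher, 23 lower), 4 with the rule applied after thinning (Il18r1, St6galnac3 and Olfr60 higher, Hspa1a lower), 4 in T-low barcodes alone, 21 with DESeq2, and 0 to 2 without each library in turn, with the 2 called without control 2. In T cells 0 became 232 with no filter and 41 with DESeq2. For the difference of effects 0 became 207 with no filter, 4 with DESeq2 and 0 to 14 without each library (14 without knockout 2, 3 without knockout 3, 5 without control 1, 1 without control 2). The share of C1q barcodes (knockout minus control 0.927 percentage points) reversed to −0.131 with the rule after thinning and to −0.235 for T-low barcodes alone. After thinning the controls lay on both sides of the knockout libraries. The T-low share kept its direction at limits of 10% and 40%. Restricting the fit to 460 macrophage-enriched genes, added after seeing the data, gave 0 calls, with 39 at an unadjusted p under 0.05.

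Of 668 alternative values for 42 named genes, 610 kept direction and side of the threshold, 24 passed the threshold and 34 reversed. Applied after thinning, log2 fold changes turned for Cd55 (0.26), Pf4 (−0.22), Csf1r (−0.33) and Tnf (−0.041). In T-low barcodes alone they turned for Cd81 (0.029), Il1b (0.82), Cxcl9 (−0.69) and Maf (−0.042), and in T-carrying barcodes for Cx3cr1 (0.061) and Cd163 (−0.036). Removing the highest-UMI barcodes gave Apoe −0.0026, Csf1r −0.030 and Ly6c2 −0.073, the stricter rule Csf1r −0.064, and macrophage-enriched genes Csf1r −0.0059. Without each library in turn the ranges were −0.43 to 1.06 for Apoe, −0.21 to 0.30 for Csf1r, −0.84 to 0.46 for Adgre1, −0.27 to 0.19 for Cx3cr1, −0.84 to 6.10 for Cd163, −0.0081 to 0.95 for Ccr2, −0.071 to 0.27 for Ly6c2, −0.65 to 0.20 for Cd81, −0.95 to 0.35 for Il1b, −0.34 to 0.82 for Ccl2 and −0.24 to 1.17 for Hmox1. The cause was not tested.

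With the replicate number as a block, edgeR called 0 genes in C1q barcodes and 0 in T cells, and Csf1r (−0.048), Ccl2 (−0.33) and Hmox1 (−0.14) turned. Only numbers 1 and 2 occur in both groups, and no label ties them. Deviations of same-numbered libraries correlated at 0.130 and −0.131 over 6972 genes. With 2 control libraries their deviations are exact opposites, so each knockout library's correlations with them mirror each other. The correlations therefore cannot show whether same-numbered libraries share more than a number. The difference of effects already has the library as a term. With 3 and 2 libraries, permutation over single values cannot go below 0.2.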

Other observations

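Single barcodes carried much of some genes. In C1q barcodes of knockout 1, Igkc, an immunoglobulin light chain gene, had 31291 UMIs, of which 15685 lay in 1 barcode, against 102 and 41 UMIs in the other knockout libraries and 743 and 123 in the control libraries. Gzmc, a granzyme gene and the one with the smallest adjusted p in edgeR (0.111), had 99, 110 and 68 UMIs in knockout and 11 and 9 in control libraries, with 94, 38 and 37 of the knockout UMIs in the top barcode of each library. Interferon-gamma response genes were positive for 12 of 14 (median log2 fold change 0.16), and cell cycle genes for 12 of 13 (median 0.07), with none passing edgeR's test. In T cells the medians of these lists were 0.17 and 0.33. The summed level of either list was lower in C1q barcodes than in T cells in all 5 libraries.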
